A study of Mus musculus with 24 samples.

Results

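The messenger RNA of 7 genes of the cholesterol synthesis pathway was followed in liver, brain and heart of mice given an Ephedra herba extract. They were Hmgcs1, Idi1, Fdps, Sqle, Lss and Cyp51, which encode enzymes, and Insig1, which encodes a sterol-dependent brake on the pathway. None of them encodes a protein that takes cholesterol up from the blood. The genes were chosen by symbol, and each was read from its annotated probe with the highest mean over all arrays. They made up 7 of the 16110 genes on the array, and all 7 were among the 10934 genes tested, which lay above the array median on at least 4 of 24 arrays. Idi1 passed that limit through liver alone, with 8 liver arrays above the median and 0 brain and 0 heart arrays.

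The mice were 5-week-old female C57BL/6 animals. An aqueous Ephedra herba extract was given by mouth at 50 mg/kg, and each tissue was taken on the first day (after 1, 6, 12 or 24 hours), later (after 3, 5 or 10 days), or from untreated mice. Ephedra herba is a plant drug that contains ephedrine. Each tissue and time had 1 bead array, so there were 24 arrays and no replicates, and a p-value measures only how much these samples scatter, which may be technical. The sources used here do not state whether dosing was repeated, how many animals stand behind an array, the hour of sampling or the feeding state.

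Cholesterol is built from acetyl-CoA in a long chain of reactions. HMG-CoA synthase, the product of Hmgcs1, feeds the mevalonate branch, the isomerase Idi1 interconverts the isoprenoid building blocks, and farnesyl diphosphate synthase, from Fdps, joins them. Squalene epoxidase (Sqle) and lanosterol synthase (Lss) then form the ring system, and the demethylase Cyp51 starts the trimming of lanosterol towards cholesterol. When membranes of the endoplasmic reticulum are poor in sterol, SREBP transcription factors are released and switch these genes on together. INSIG1 holds the SREBP escort protein in the endoplasmic reticulum when sterol is plentiful, and its own gene is also an SREBP target. Liver is a main site of cholesterol synthesis, and brain makes its own because lipoproteins do not cross the blood-brain barrier.

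The RefSeq promoter table (build GRCm38.p6) held 5 of the 7 genes, and the 4 of these with levels well above the median in liver are printed, because genes of this pathway are known to be switched on through short elements near their starts. Each sequence runs from 250 bases before the gene's start to 50 after it, in the direction of the gene, and capitals mark the letters TCACNCCAC, a sterol regulatory core, and CCAAT, the box bound by the partner factor NF-Y, each searched on both strands.
Hmgcs1, chr13:119690101-119690400, plus strand: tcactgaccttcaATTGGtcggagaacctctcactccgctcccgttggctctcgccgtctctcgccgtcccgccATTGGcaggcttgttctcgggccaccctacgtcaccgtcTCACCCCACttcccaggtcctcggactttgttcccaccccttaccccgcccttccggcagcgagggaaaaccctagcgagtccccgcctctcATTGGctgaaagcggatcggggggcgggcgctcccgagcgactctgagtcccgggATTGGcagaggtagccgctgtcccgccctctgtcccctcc
Lss, chr10:76531355-76531654, plus strand: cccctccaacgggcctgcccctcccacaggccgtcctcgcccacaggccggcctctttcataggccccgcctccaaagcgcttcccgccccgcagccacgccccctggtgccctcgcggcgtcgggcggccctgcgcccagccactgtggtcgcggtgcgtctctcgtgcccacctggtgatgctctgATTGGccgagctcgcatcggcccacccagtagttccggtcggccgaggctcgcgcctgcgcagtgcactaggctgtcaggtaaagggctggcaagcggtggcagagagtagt
Cyp51, chr5:4104648-4104947, minus strand: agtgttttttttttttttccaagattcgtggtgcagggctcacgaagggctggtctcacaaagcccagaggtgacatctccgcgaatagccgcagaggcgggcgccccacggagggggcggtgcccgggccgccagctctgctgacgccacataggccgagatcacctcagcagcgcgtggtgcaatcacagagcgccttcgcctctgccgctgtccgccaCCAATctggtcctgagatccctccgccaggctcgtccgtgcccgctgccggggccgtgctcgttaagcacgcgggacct
Insig1, chr5:28071162-28071461, plus strand: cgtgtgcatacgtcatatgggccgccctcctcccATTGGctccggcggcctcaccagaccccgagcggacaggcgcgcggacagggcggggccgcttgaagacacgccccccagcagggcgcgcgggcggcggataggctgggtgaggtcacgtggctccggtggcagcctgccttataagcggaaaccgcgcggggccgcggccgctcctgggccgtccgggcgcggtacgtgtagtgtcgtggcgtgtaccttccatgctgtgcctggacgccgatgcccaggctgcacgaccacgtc
The letters TCACNCCAC occurred in 1 of the 5 promoters, that of Hmgcs1, where TCACCCCAC began 137 bases before the start, and in 1.24% of all 32851 promoters in the table. A CCAAT box lay in 5 of 5, against 37.4% of all promoters, and Hmgcs1 held 4 of them. The GC box GGGCGG was also in 5 of 5, against 35.7% of all promoters. The E-box CACGTG, an element that clock factors and SREBPs can bind, was found in Insig1 alone, 101 bases before the start, and in 7.15% of all promoters. No marked motif overlapped another. These matches describe the letters of the window.

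Levels are log2 values as deposited, centred by the authors so that the median probe of an array lies near 0. A level can be compared between arrays for 1 gene, but not between genes, since each is read by a different probe. Array shape differed within liver. The 95th percentile over probes was 5.15 to 5.36 on the 6, 12 and 24 hour liver arrays and 4.13 to 4.52 on the other 5, and the highest value of an array was 10.6 to 11.2 against 7.84 to 9.42. A second version was therefore followed beside the deposited one, in which the 24 arrays were quantile-normalized, that is, given 1 shared distribution. The deposited tissues matched their markers, yet 4 liver markers (Apoa1, Cps1, Ttr and Serpina1c) had a mean level of 3.05, 3.95, 2.37 and 1.52 on the untreated, 1 hour, 6 hour and 10 day heart arrays, against -0.03 to 0.53 on the other 4. The heart gene Myl2 reached 3.17 and 2.00 on the 1 hour and 24 hour liver arrays and lay below 0 on the other liver arrays. On the 4 heart arrays Apoa1, Ttr and Serpina1c all lay above 1, while Cps1 ran from -0.14 to 2.18. On the 2 liver arrays the heart genes Myh6 and Nppa lay between -0.19 and 0.55. The part that RNA of a neighbouring tissue has in the results was not tested. In bulk tissue, fewer cells of a type and less RNA per cell cannot be told apart.

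The first question was how the tissues differ. As deposited, liver held the highest mean level of every one of the 7 genes and heart the lowest, level with brain for Idi1, and the difference was largest for Sqle. In heart, Sqle lay between 0.23 and 1.00 (median 0.44), in brain between 4.37 and 4.64 (median 4.47), and in liver between 2.96 and 6.43 (median 4.54). Every brain and every liver array thus lay above every heart array, while brain lay inside the range of liver. Its mean was 0.51 ± 0.27 in heart, 4.50 ± 0.10 in brain and 4.89 ± 1.30 in liver (SD, n = 8 times each). Heart was 15.9-fold below brain (log2 difference -3.99, SE 0.36, limma adjusted p = 1.33e-08) and liver 20.8-fold above heart (log2 difference 4.38, SE 0.36, adjusted p = 4.47e-09). In heart Sqle lay near the array median, and its second probe lay below the median on all 8 heart arrays, so both folds are measured against a level that may be background. The liver and brain levels of Sqle differed by 0.39 (SE 0.36), which did not pass (adjusted p = 0.33).

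**Figure D1:**
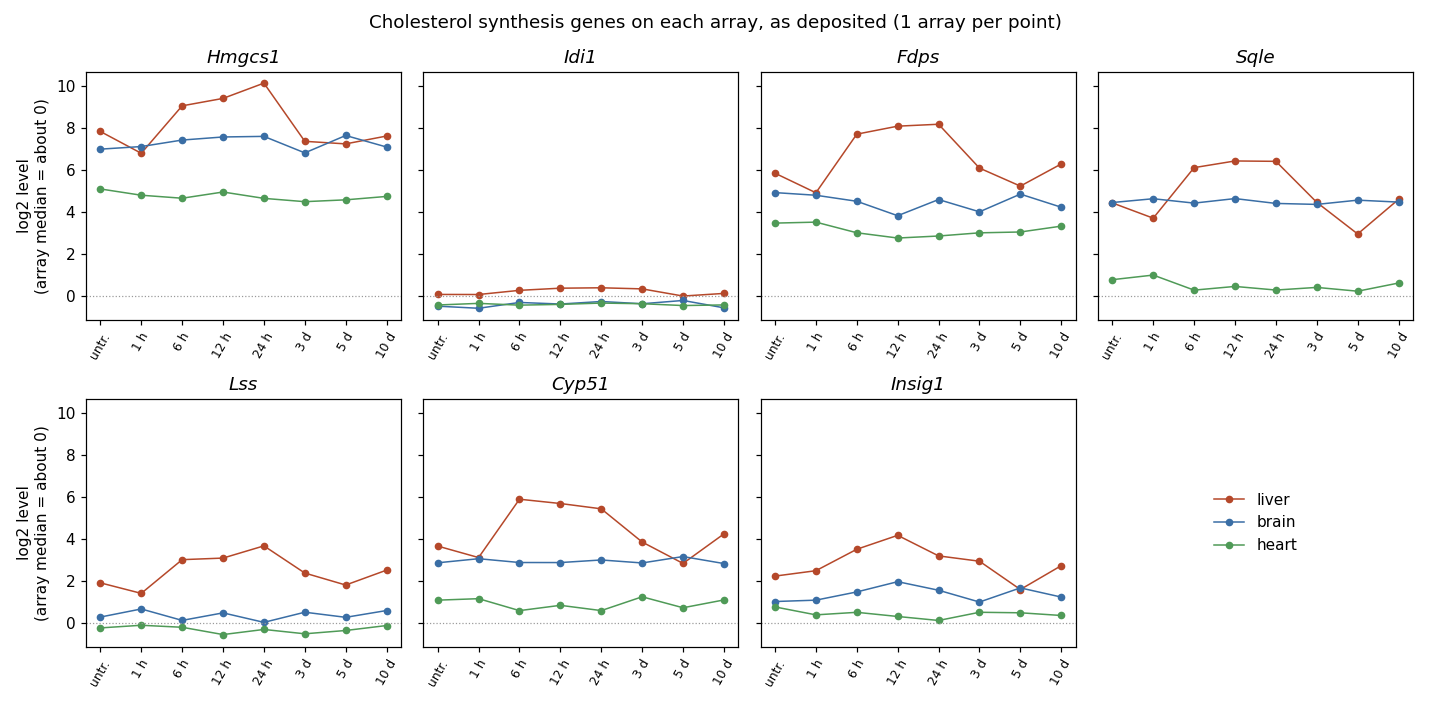
Level of each of the 7 genes (vertical axis, log2 as deposited, array median near 0) at each time (horizontal axis) in liver, brain and heart, with 1 array per point. Heart lies lowest for every gene except Idi1, and the liver lines stand highest at 6, 12 and 24 hours for every gene except Idi1, whose levels run from -0.58 to 0.40.

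Hmgcs1, the entry enzyme, had a liver and brain difference that depended on the scaling. It ran from 4.50 to 5.10 in heart (mean 4.75 ± 0.20, SD, n = 8), from 6.82 to 7.65 in brain (7.29 ± 0.32) and from 6.80 to 10.14 in liver (8.19 ± 1.19). Heart did not overlap the other tissues, and liver lay above brain at 6 of 8 times. The log2 difference of liver and brain was 0.90 (SE 0.30, limma adjusted p = 0.012) as deposited and -0.13 (adjusted p = 0.49) after quantile normalization, so its sign turned with the scaling. Fdps, which makes farnesyl diphosphate, was 10.7-fold higher in liver than in heart (log2 difference 3.42, SE 0.40, adjusted p = 5.54e-07) and 4.22-fold higher in liver than in brain (2.08, SE 0.40, adjusted p = 0.00014). Heart levels of Fdps ran from 2.77 to 3.52, brain from 3.83 to 4.93 and liver from 4.92 to 8.18. Heart and brain did not overlap, and the lowest liver array, that of 1 hour, touched the top of the brain range.

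The late enzymes gave the same order of tissues. Lss, which closes the sterol rings, had a mean of 2.49 ± 0.76 in liver, 0.39 ± 0.23 in brain and -0.28 ± 0.17 in heart (SD, n = 8), with no overlap between any of the 3 tissues. It lay below the array median on every heart array, so the liver and heart difference of 2.77 (SE 0.24, limma adjusted p = 6.37e-09) is measured against a level that may be background. Cyp51, the lanosterol demethylase, had means of 4.36 ± 1.19, 2.96 ± 0.12 and 0.94 ± 0.26 in liver, brain and heart. Its heart arrays lay below all others, and liver exceeded brain at 7 of 8 times (log2 difference 1.40, SE 0.35, adjusted p = 0.0014). Insig1, the sterol-dependent brake, had means of 2.88 ± 0.79 in liver, 1.40 ± 0.35 in brain and 0.45 ± 0.19 in heart. Brain and heart again did not overlap, the heart level being near the array median, and liver exceeded brain by 1.48 (SE 0.23, adjusted p = 1.38e-05), at 7 of 8 times. Idi1, the isomerase, lay between 0.00 and 0.40 in liver and between -0.58 and -0.21 in brain and heart together, so no difference of it is read here as a fold.

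Counted over the 7 genes, 7 were called higher in liver than in heart (limma adjusted p under 0.05), against 24.7% of all genes tested. Liver was higher than brain for 6, against 30.6%. Both counts hold Idi1, which was tested through its liver arrays alone, so that its call was favoured by the filter, and the other genes called were 6 and 5. Heart was lower than brain for 6, against 37% of all genes. The median log2 difference of liver and heart was 3.42, beside -0.12 over all genes, that of liver and brain 1.40 beside -0.16, and that of heart and brain -1.34 beside 0.03. Quantile normalization moved the median over all genes in the liver and brain comparison from -0.16 to 0.01. On that scale 5 of the 7 were called higher in liver than in brain, with the share of all genes not given here. The counts were the same, 7, 6 and 6, in fits without the 4 heart arrays that carry Apoa1 above 1 and in fits without the 1 and 24 hour liver arrays. Without the liver arrays of 6, 12 and 24 hours, 5 were called higher in liver than in brain, Hmgcs1 was no longer called (0.17, adjusted p = 0.35), and Sqle became lower in liver than in brain (-0.51, adjusted p = 0.026). These 3 sets of left-out arrays were chosen after the values were seen.

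**Figure D2:**
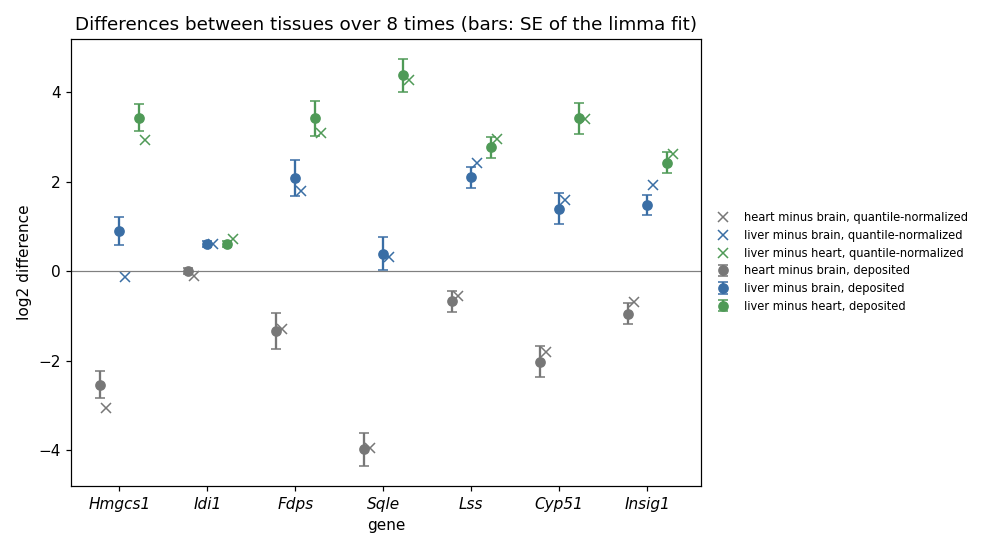
Log2 difference between tissues for each of the 7 genes over the 8 times. Circles are deposited values with the standard error of the limma fit, and crosses are values after quantile normalization. Every liver minus heart value lies above 0, and the liver minus brain value of Hmgcs1 changes from 0.90 to -0.13 with the scaling.

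The second question was how the genes moved over time in liver. As deposited, 6 of the 7 genes stood higher at 6, 12 and 24 hours than at any other time, against 30.4% of all genes, and were lower again at 3 days, at most 0.71 above the untreated array, and below it at 5 days. The 3 times were picked out after the levels were seen. Hmgcs1 stood at 7.84 untreated and 6.80 at 1 hour, and was 9.06, 9.41 and 10.14 at 6, 12 and 24 hours and 7.37, 7.25 and 7.62 at 3, 5 and 10 days. The 3 arrays from 6 to 24 hours lay above all the others, and the 1 hour array was the lowest. Fdps followed with 5.85, 4.92, 7.71, 8.09, 8.18, 6.10, 5.24 and 6.29 at the same times. Its order was alike, with 1 hour and 5 days at the bottom.

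Sqle, which carries out the first oxygen-dependent step, was 4.44 untreated, 3.71 at 1 hour, 6.12, 6.43 and 6.42 at 6, 12 and 24 hours, and 4.46, 2.96 and 4.61 at 3, 5 and 10 days. Its 5 day level was the lowest and lay 1.48 below the untreated array. Cyp51 was 3.68, 3.13, 5.91, 5.71, 5.45, 3.87, 2.85 and 4.26 in the same order of times. It was highest at 6 hours, the earliest of the peaks. Lss was 1.93, 1.43, 3.03, 3.11, 3.69, 2.40, 1.83 and 2.54, and peaked at 24 hours. Insig1 was 2.25, 2.51, 3.53, 4.19, 3.21, 2.96, 1.61 and 2.75, with its peak at 12 hours and, unlike the enzymes other than Idi1, no dip at 1 hour. These courses are those of the used probes, and a second Sqle probe had no dip at 1 hour (1.65 against 1.22 untreated). Another Insig1 probe stood at 1.37 at 6 hours against 1.36 untreated, and a further one at 3.19 against 2.09. Idi1 moved between 0.00 and 0.40, with the 3 day array (0.35) above the 6 hour array (0.28), so its times overlapped.

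Set against the untreated liver array, a difference of 1 array and 1 array that has no test, 6 of 7 genes were at least 2-fold higher at 6 hours (12.2% of all genes), 6 at 12 hours (8.68%) and 5 at 24 hours (11.8%). The largest were Fdps at 24 hours, 2.33 on the log2 scale, Hmgcs1 at 24 hours, 2.30, Fdps at 12 hours, 2.24, and Cyp51 at 6 hours, 2.23. At 1 hour only Hmgcs1 was at least 2-fold lower, by a log2 difference of -1.04 (0.11% of all genes were lower), and at 5 days only Sqle, by -1.48 (1.44%). At 3 days 0 of 7 had moved 2-fold in either direction, where 0.732% of all genes were up and 0.658% down, and likewise at 10 days, where 0.0915% were up and 0.238% down. The median of the 7 differences was -0.55 at 1 hour, 1.28, 1.94 and 1.77 at 6, 12 and 24 hours, 0.24 at 3 days, -0.61 at 5 days and 0.44 at 10 days. The median over all genes stayed between -0.10 and 0.09 at these times.

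After quantile normalization the median of the differences at 6, 12 and 24 hours was smaller, and that at 5 days was not. The median difference became 0.54, 0.89 and 0.60 at 6, 12 and 24 hours, 0.48 at 3 days, 0.65 at 10 days and -0.70 at 5 days. At least 2-fold higher were then 1 gene at 6 hours, 2 at 12 hours and 1 at 24 hours, against 2.22%, 1.87% and 1.71% of all genes. These were Cyp51 at 6 and 12 hours (1.14 and 1.12), Insig1 at 12 hours (1.41) and Lss at 24 hours (1.28), as differences with no test. Hmgcs1 instead lay below its untreated level at 6, 12 and 24 hours, with differences of -0.63, -0.26 and -0.10. Idi1, at 0.30, 0.43 and 0.49, was the 1 gene whose differences at these times were larger than as deposited. On this scale 3 of 7 genes, Sqle, Lss and Cyp51, still had all 3 of these arrays above the other 5, against 14.8% of all genes.

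**Figure D3:**
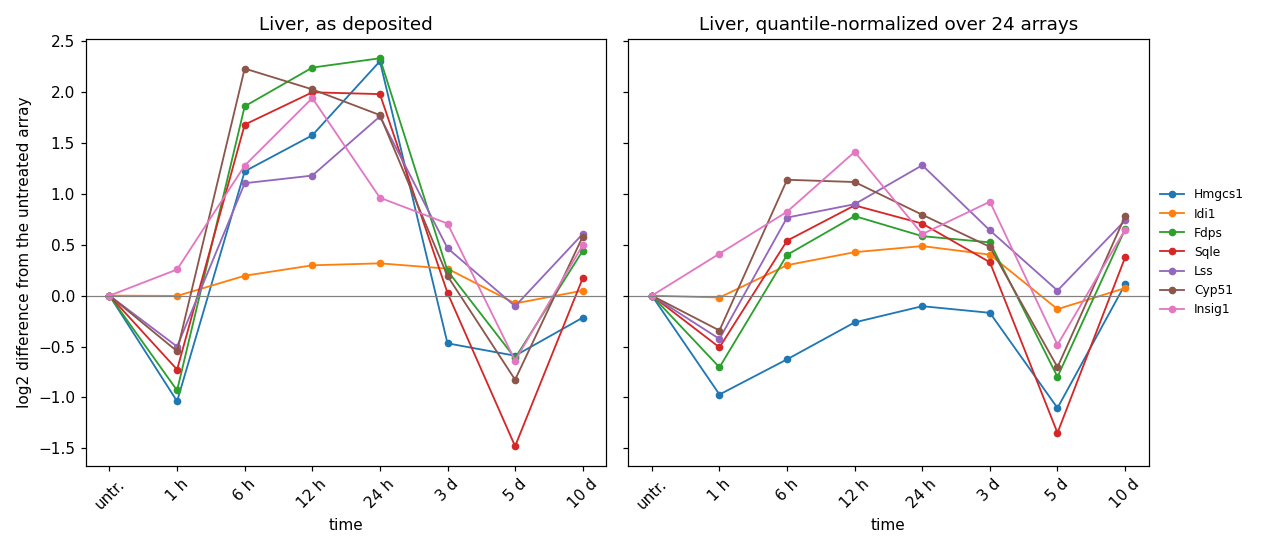
Difference of each of the 7 genes from the untreated liver array (vertical axis, log2) at each time, as deposited on the left and after quantile normalization on the right, with 1 array per point. At 6 to 24 hours the differences on the right are below 0 for Hmgcs1, larger than on the left for Idi1 and smaller for the other 5 genes, and Sqle is lowest at 5 days on both sides, at -1.48 and -1.35.

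The lowest liver arrays were followed on both scales. The 1 hour and 5 day arrays were the lowest pair for 6 of 7 genes as deposited, against 6.37% of all genes, and for 5 of 7 after quantile normalization, against 5.02%. The 5 day array alone was the lowest for 4 of 7 as deposited (18.6% of all genes) and for 6 of 7 after quantile normalization (16.5%). Each of these counts holds Idi1, whose 1 hour and untreated levels were nearly equal as deposited (0.0773 and 0.0803). They also rest on the used probes. By its second probe, Sqle was lowest at 5 days (0.41) and next lowest untreated (1.22). Another Insig1 probe was lowest untreated (1.36), with 1.95 at 5 days, and a further one was lowest at 5 days (1.43). At 5 days Sqle lay at -1.35 and Hmgcs1 at -1.10 from the untreated array after normalization, the 2 genes at least 2-fold lower there (1.47% of all genes). These arrays were picked out after the levels were seen. The liver markers stood high with the 6 to 24 hour arrays and not low at 5 days. The mean of the 4 liver markers was 10.2, 9.96 and 10.6 at 6, 12 and 24 hours, 8.60 at 5 days and 7.59 to 7.88 on the other 4 liver arrays. After quantile normalization Apoa1, the most abundant protein of high-density lipoprotein, stayed between 8.58 and 8.78 on all 8. It lies near the top of each liver array, where a shared distribution itself fixes the values. Its steady level therefore cannot serve as a control for the sterol genes. The part of array shape in the 6 to 24 hour levels was not tested.

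Tests of time used the spread shared by several arrays. With the 3 tissues as replicates of a time, 0 of 7 genes were called against untreated at any of the 7 times. Of all genes 0% were called at 1 hour, 3.33%, 5.37% and 2.7% at 6, 12 and 24 hours, and 0.32%, 1.98% and 0% at 3, 5 and 10 days. The lowest adjusted p in limma was 0.23, for Insig1 at 12 hours (log2 difference 0.81, SE 0.38, unadjusted p = 0.047). The used probe of Insig1 was higher at 12 hours in liver and brain and lower in heart. An F test over all times called 0 of 7, against 4.31% of all genes. Contrasts of groups of times within a tissue used 1 spread shared by all 24 arrays. Sqle scattered more in liver (SD 1.30) than in brain (0.10) or heart (0.27). In liver, 6 and 12 hours against 24 hours, 3, 5 and 10 days called 0 of 7 (1.58% of all genes). An unadjusted p under 0.05 was found for 4 of 7, and for 2646 of the 10934 genes tested. Cyp51 came closest (log2 difference 1.70, SE 0.44, adjusted p = 0.061), followed by Insig1 (1.23, SE 0.34, adjusted p = 0.072). The 24 hour array, which was as high as that of 12 hours for Sqle, counts here among the later ones. Leaving the 24 hour arrays out raised the count to 6, against 29.8% of all genes.

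The arrays of 3, 5 and 10 days, set against those of 1, 6, 12 and 24 hours in liver, gave 2 genes lower, against 10.8% of all genes. Sqle was lower by a log2 difference of -1.66 (SE 0.48, limma adjusted p = 0.036) and Hmgcs1 by -1.44 (SE 0.47, adjusted p = 0.049). Cyp51 (-1.39, adjusted p = 0.051), Fdps (-1.35, adjusted p = 0.094) and Insig1 (-0.92, adjusted p = 0.066) did not pass. The median over all genes was -0.10 as deposited and 0.01 after quantile normalization. Relative to the deposited median, Sqle was at -1.55 and Hmgcs1 at -1.34. After quantile normalization 0 of 7 were called, with Sqle at -0.62 (adjusted p = 0.24) and Hmgcs1 at 0.10 (adjusted p = 0.85). The count rose to 6 without the 1 hour arrays, with 38.7% of all genes called, and fell to 0 without any 1 of the 6, 12 or 24 hour or 3, 5 or 10 day arrays, and to 1 without the 12 hour brain array. It was 0 without the 4 heart arrays with liver markers and 0 in a fit of the 8 liver arrays alone.

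Whether liver differed from the other tissues over time was tested by an F test of the difference itself. It called 0 of 7 genes for the first day against the later days and 0 of 7 for 6 and 12 hours against the whole days, where 0% of all genes were called in each. Unadjusted p-values under 0.05 were found for 1574 and 1149 of all genes in these tests. For the first day against later days Cyp51 had an unadjusted p = 0.045 and Sqle 0.048 in limma, both with an adjusted p = 0.34. Without the 1 hour arrays 5 of 7 were called in that test, where 27.1% of all genes were, and without the 24 hour arrays 4 of 7 in the other, where 16.4% were. Treated against untreated called 0 of 7 in liver, brain or heart, with 0% of all genes called in liver and in brain and 0.11% in heart, on the assumption that 1 untreated array varies as much as the treated ones.

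In brain the used probes of 4 genes had narrow ranges. Sqle stayed between 4.37 and 4.64, Cyp51 between 2.85 and 3.18, Lss between 0.05 and 0.69 and Idi1 between -0.58 and -0.21. Insig1 was 1.04 untreated, 1.11 at 1 hour, 1.50, 1.99 and 1.58 at 6, 12 and 24 hours, and 1.02, 1.69 and 1.25 at 3, 5 and 10 days. It was higher at 6, 12 and 24 hours and 5 days than at the other 4 times. Hmgcs1 showed the same split in its levels of 7.0, 7.12, 7.43, 7.58, 7.61, 6.82, 7.65 and 7.10. Fdps did not, with 4.93, 4.80, 4.52, 3.83, 4.60, 4.01, 4.86 and 4.23, and its 12 hour level was the 1 difference from untreated of at least 2-fold (-1.10, no test, against 9.61% of all genes lower there). After quantile normalization Hmgcs1 (1.37) and Insig1 (1.05) were at least 2-fold higher at 12 hours, against 5.3% of all genes, and Fdps was at -0.94.

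Some probes of the same gene disagreed in brain. A second Sqle probe went from 1.53 untreated and 1.63 at 1 hour to 2.51, 3.11 and 2.71 at 6, 12 and 24 hours and 2.71 at 5 days, with 1.69 at 3 days and 1.94 at 10 days, while the used probe was flat. Another Insig1 probe went from 0.59 and 0.63 to 1.76, 1.53, 1.65, 1.43 and 2.24 from 6 hours to 5 days and was back at 0.49 at 10 days. In liver that Insig1 probe was lowest untreated (1.36) and stood at 1.37 at 6 hours. It peaked at 24 hours (2.53), not at 12 (2.25), and was 2.28 at 3 days and 1.95 at 5 days. The second Sqle probe was 4.41 on the 12 hour liver array and 0.41 on that of 5 days, the times at which the used probe was also highest and lowest. At 1 hour in liver the 2 Sqle probes disagreed. The second stood at 1.65 against 1.22 untreated, while the used probe stood at 3.71 against 4.44. A further Insig1 probe followed the used one, with its liver peak at 12 hours (3.89), its lowest liver level at 5 days (1.43) and its brain peak at 12 hours (1.59). The dimmest Insig1 probe lay below the array median on all 24 arrays. The target regions of the probes were not used here.

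**Figure D4:**
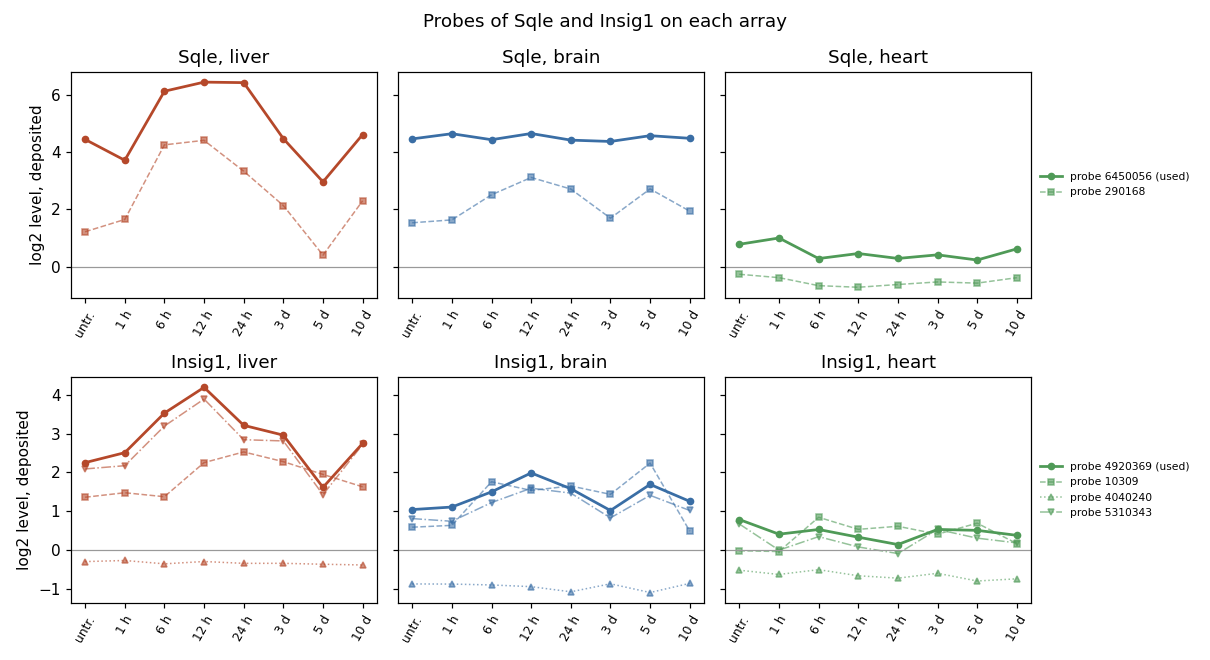
Level of each probe of Sqle (top row) and Insig1 (bottom row) on each array (log2 as deposited) in liver, brain and heart. The thick line is the probe used for the gene. In brain the used Sqle probe stays between 4.37 and 4.64 while the other runs from 1.53 to 3.11.

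The makeup of the brain arrays also differed between these times. The mean of 5 cerebellum markers (Pcp2, Cbln1, En2, Zic1 and Gabra6) was 0.98 untreated, 0.72 at 1 hour, 3.44, 3.47 and 4.0 at 6, 12 and 24 hours, and 2.34, 3.88 and 2.31 at 3, 5 and 10 days. Its 4 highest arrays were those on which Insig1, Hmgcs1 and the second Sqle probe were highest. Pcp2, a Purkinje cell gene, was below the median on the untreated and 1 hour arrays and reached 5.32 at 5 days. The part of brain region in these differences was not tested. The mean of 4 myelin genes, by contrast, stayed between 5.59 and 6.21.

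Heart had the lowest mean levels, and its range over the 8 times was narrower than that of brain for 5 of the 7 genes but wider for Sqle and Cyp51. Hmgcs1 was 5.10 untreated, 4.80 at 1 hour, 4.66, 4.96 and 4.65 at 6, 12 and 24 hours, and 4.50, 4.58 and 4.75 on the later days, so every treated array lay below the untreated one as deposited. After quantile normalization the differences at 6, 12 and 24 hours were 0.05, 0.33 and 0.11, above the untreated array. By its used probe Insig1 had its highest level untreated on both scales, as deposited, 0.78, and between 0.14 and 0.53 afterwards. Another Insig1 probe went the other way, from -0.02 untreated and -0.04 at 1 hour to 0.84, 0.53 and 0.61 at 6, 12 and 24 hours. It was 0.41, 0.69 and 0.16 at 3, 5 and 10 days. A further Insig1 probe was highest untreated (0.67). Fdps was 3.48 untreated, 3.52 at 1 hour and 2.77 to 3.33 later. No difference from the untreated array reached 2-fold, the widest being -0.71 for Fdps at 12 hours, and the median difference of the 7 genes ran from -0.49 at 24 hours to 0.07 at 1 hour. The median over all genes was -0.17 at 24 hours. After quantile normalization the lowest median was -0.28, at 3 days. The untreated heart array stood apart in its white fat markers, with a mean over 5 genes of 2.02 against -0.07 to 0.43 on the other 7. Adipoq, an adipocyte hormone gene, was 4.28 there and 0.22 to 1.85 elsewhere, and Plin1 and Retn lay near 0 (0.12 and 0.02). The part of these levels, and of the liver markers on 4 heart arrays, in the heart differences was not tested.

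Levels of the 7 genes were more alike in course in liver than in the other tissues. Over the 8 liver arrays the median Pearson correlation of the 21 pairs was 0.90 (0.72 to 0.98) as deposited and 0.81 (0.43 to 0.95) after quantile normalization, where the median was 0.24 and 0.13 in brain and 0.27 and 0.05 in heart. The points share arrays and array shape, and the levels of Idi1 and Lss in heart lie below the median, so these values are a description. The difference between tissues in these correlations was not tested.

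Other enzymes of the pathway gave a measure of how far the pattern reached. Of 9 on the array 8 were tested, and these were chosen by their place in the pathway. Liver was higher than heart for 8 of 8, against 24.7% of all genes, and higher than brain for 6 of 8, against 30.6%. Heart was lower than brain for 6 of 8, against 37%. After quantile normalization these counts were 8, 8 and 5, with the shares of all genes on that scale not given here. Msmo1, a methyl oxidase that acts after Cyp51, differed most between liver and heart (log2 difference 3.84, limma adjusted p = 1.10e-10), and Ebp, a sterol isomerase, between liver and brain (3.32, adjusted p = 1.12e-10). Over time in liver, Nsdhl, a sterol dehydrogenase, was 1.52 untreated, 1.81, 3.89, 3.92 and 3.31 from 1 to 24 hours, and 1.96, 0.77 and 2.41 on the later days. It was lower on the later days than on the first as deposited (-1.52, adjusted p = 0.027) and after quantile normalization (-1.06, adjusted p = 0.046). Ebp (-0.88, adjusted p = 0.049) and Hsd17b7 (-1.47, adjusted p = 0.023) were lower as deposited only, and after normalization lay at 0.11 and -0.42.

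Sc5d, the sterol desaturase near the end of the pathway, ran the other way. It was 2.47 untreated, 1.67, 1.33, 1.25 and 0.63 from 1 to 24 hours, and 2.33, 1.47 and 2.61 at 3, 5 and 10 days. It was higher on the later days by 0.91 (SE 0.24, limma adjusted p = 0.027) and by 1.04 (adjusted p = 0.011) after quantile normalization. Pmvk, a kinase of the mevalonate branch, had 1.78 untreated, 1.41 at 6 hours and 2.57 at 10 days and was not called. Mvd, Msmo1 and Dhcr7 were not called either, and Mvd shared the low 1 hour and 5 day levels (1.25 and 1.01, against 2.16 untreated). Across the 8 liver arrays the correlation with the mean of the 7 genes had a median of 0.90 over these 8 enzymes, beside 0.38 over all genes, and 0.73 beside -0.02 after quantile normalization. It was -0.22 for Pmvk and -0.56 for Sc5d as deposited.

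By rule, the 5 genes most like the mean of the 7 were named. Over the 8 liver arrays as deposited they were Ebp (r = 0.985), Lacc1, Gstm6, Riox2 and AW549877, and 4.82% of all genes exceeded 0.9. After quantile normalization they were Tmx3 (r = 0.968), Mvd (0.962), Tmem255a, Orm1 and Cysltr1, with 0.275% of all genes above 0.9. Orm1, an acute phase protein of liver, was 10.2, 10.1 and 10.6 at 6, 12 and 24 hours and 7.32 to 7.89 at the other times. Over all 24 arrays with tissue means taken out, Nsdhl was the most like after normalization (r = 0.850) and among the first 5 before it (0.931). Mvd, which makes isopentenyl diphosphate, Nsdhl and Ebp are enzymes of the same pathway.

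Regulators and neighbouring pathways were read beside them. Of 5 tested genes of sterol sensing, 4 were higher in liver than in brain and 4 higher in liver than in heart, and 2 were lower on the later days in liver, where 30.6%, 24.7% and 10.8% of all genes were. After quantile normalization liver was higher for 5 of 5 in both comparisons, and on the later days 0 were lower and 1 was higher, Stard4 (0.66, limma adjusted p = 0.037). Shares of all genes on that scale are not given here. Insig2, the partner of Insig1, was 5.41 untreated, 6.67 to 6.78 from 6 to 24 hours and 4.39 at 5 days, and was lower on the later days than on the first (-1.59, limma adjusted p = 0.011), which became -0.54 (adjusted p = 0.069) after normalization. Srebf1, the SREBP that favours fatty acid genes, was 2.44 untreated, 3.29, 4.06 and 4.94 at 6, 12 and 24 hours and 2.78 at 5 days, and was not called. Stard4, a carrier of cholesterol between membranes, lay between 3.63 and 4.42 as deposited. Of 8 tested fatty acid synthesis genes, 1 was lower on the later days, against 10.8% of all genes. This was Acly, which supplies acetyl-CoA to both pathways (-1.55, limma adjusted p = 0.048). After normalization Acly was not called (-0.35, adjusted p = 0.43), while Fasn, the fatty acid synthase, was higher on the later days (0.59, adjusted p = 0.046).

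Cyp7a1, the rate-limiting enzyme of bile acid synthesis, was the gene of cholesterol disposal with the widest course. It was 4.88 untreated, 5.16 at 1 hour, 8.54, 8.62 and 9.40 at 6, 12 and 24 hours, and 5.04, 5.25 and 4.55 on the later days. As deposited, its 3 highest arrays were those on which the synthesis genes other than Idi1 were highest, a trait of 30.4% of all genes. Cyp7a1 was not low at 5 days. The fall from the first to the later days was -2.98 (SE 0.62, limma adjusted p = 0.019) as deposited and -1.59 (adjusted p = 0.0088) after quantile normalization. Of the 10 tested genes of export, esterification and bile acids, 4 were lower on the later days as deposited, against 10.8% of all genes. After normalization 1 was, Cyp7a1, with the share of all genes on that scale not given here.

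**Figure D5:**
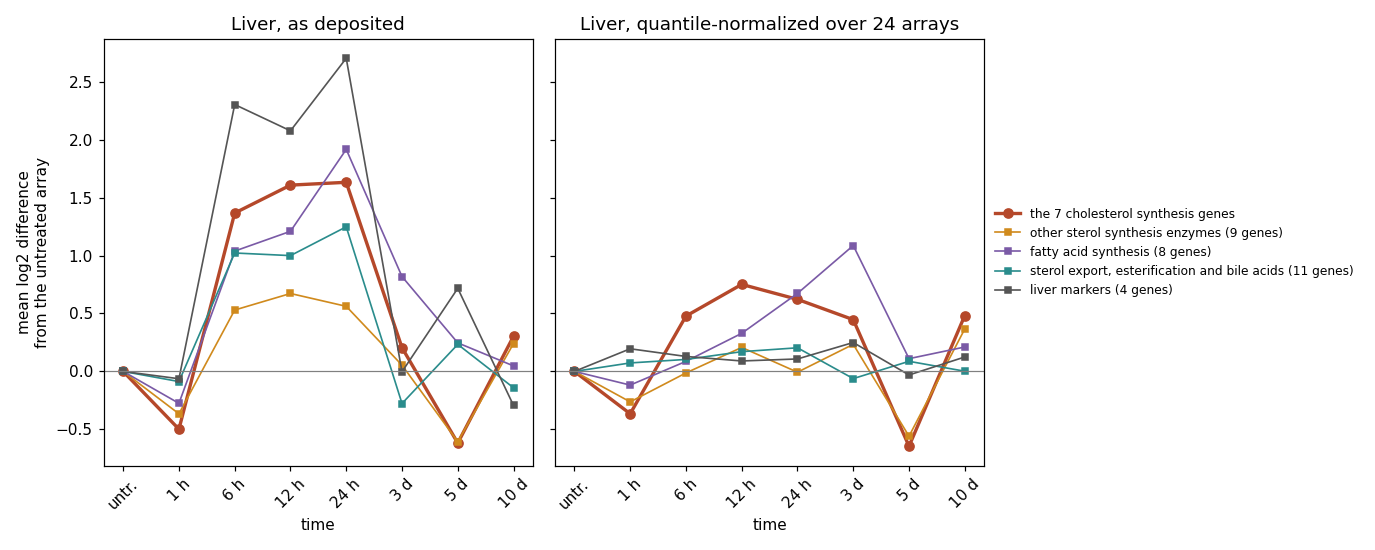
Mean difference from the untreated liver array (vertical axis, log2) of the 7 genes and of 4 gene lists at each time, as deposited on the left and after quantile normalization on the right, with 1 array per point. After normalization the 7 genes and the other sterol enzymes both dip at 5 days. The liver markers stay within 0.25 of the untreated array, but they lie near the top of each array, where the shared distribution fixes the values.

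The hour of the day was not given, and clock genes were read on the same liver arrays. Of 11 tested, 1 was called lower on the later days than on the first in liver as deposited, against 10.8% of all genes, and 0 were called after quantile normalization. With the 3 tissues as replicates, 3 were called higher than untreated and 1 lower at 24 hours, against 2.7% of all genes. At 12 hours 1 was called higher and 1 lower, against 5.37%, and at 6 hours also 1 and 1, against 3.33%. At 5 days 0 were called higher and 1 lower, against 1.98%. After quantile normalization 3, 5, 4 and 3 were called higher at 6, 12 and 24 hours and 5 days. Called lower at these times were 1, 1, 1 and 0, with the shares of all genes on that scale not given here. Clock genes were thus called in both directions, more often higher than lower after normalization, which a mean over them hides. Their mean over the 13 on the array was 1.32 untreated, 1.09 at 1 hour, 2.12, 2.24 and 2.48 at 6, 12 and 24 hours, 1.78 at 3 days, 2.11 at 5 days and 1.05 at 10 days. Per2, a repressor of the clock, was 1.94 untreated, 5.47 to 6.10 from 6 to 24 hours, 4.30 at 5 days and 1.48 at 10 days. As deposited, the 5 day array was the lowest for Sqle, Cyp51, Insig1 and Idi1. Per2 is 1 clock gene, and with 1 array per time its level cannot be used to judge sampling hour. The part of sampling hour in the course of the sterol genes was not tested.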

How the data were processed

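Per the labels' protocols, RNA of each tissue was copied into biotin-labelled cRNA and hybridised to Illumina bead arrays. The deposited table holds 1 log2 value per probe and array. Base 2 is assumed, since no label states it, and the sources used here do not state the authors' background correction or normalization. Array medians lie near 0. A second deposited table was not used, because its 24 value columns match no label, so no detection p-values were available.

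Of 25697 probes, 23141 had 1 gene symbol in the platform annotation and 2556 none. The probe with the highest mean stood for its gene. Models were fitted to 10934 genes with limma 3.58.1 in R 4.3.3 (two-sided, Benjamini-Hochberg over all genes tested, call at an adjusted p under 0.05). Tissue tests had time as a block, time tests tissue. Scripts were tested on simulated data.

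The members, gene lists and grouping of times were chosen with earlier results of these data known. Likeness was ranked by Pearson correlation with the mean of the 7 genes, the first 5 genes being named, and the other genes named belong to the lists. Alternatives were quantile normalization over 24 arrays or within tissue, a median shift, other filters, the mean of probes, a variance trend, and leaving out times, tissues or arrays. The number of arrays limits precision.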

Additional observations from a re-analysis of the deposited data

How the results depend on the processing

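Tissue tests had time, and tests of a time against untreated had tissue, as a block. Contrasts of groups of times had only tissue by group cells, with 1 spread shared by all 24 arrays. No paired analysis was possible beyond the blocks, because the labels give no replicate numbers. Each limit counts members called. In tissue comparisons the counts stayed at 6, 6 and 7 under every alternative, leave-one-out included, except that quantile normalization over 24 arrays gave 5 for liver and brain. Without the 6, 12 and 24 hour liver arrays that count was also 6, but held Sqle as lower in liver and no longer held Hmgcs1. Liver later against first days gave 2 as reported and 0 under either quantile normalization, with the 8 liver arrays only, without the 4 heart arrays or without the 6, 12 and 24 hour liver arrays, 1 without a filter or with the mean of probes, and 6 without the 1 and 24 hour liver arrays. For 6 and 12 hours against whole days in liver, 0 became 1 with a variance trend and 6 without the 1 and 24 hour liver arrays. Without those 2 arrays, the mean over tissues gave 4 in each of these contrasts, and the F tests between tissues 4 and 5. Leaving out 1 time, tissue or the 12 hour brain array gave 0 to 6 in both liver contrasts, 0 to 4 and 0 to 5 in the F tests, 0 to 2 and 0 to 4 for the means over tissues, and 0 to 1 at 12 hours against untreated, where leaving out liver called 1.

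At single times, quantile normalization over 24 arrays or within tissue changed 2-fold counts as follows: brain 12 hours up from 0 to 2 and down from 1 to 0 (0 with the other 7 arrays as reference), liver 1 hour down from 1 to 0 over 24 arrays (5 with that reference), liver 6 hours up from 6 to 1 (3 with that reference), 12 hours up from 6 to 2 or 3, 24 hours up from 5 to 1, 3 days up from 0 to 1 within tissue, and 5 days down from 1 to 2 (5 with that reference).

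Signs turned for Hmgcs1 in liver minus brain (-0.128 over 24 arrays), in 6 and 12 hours minus days (-0.128 and -0.142) and in later minus first days (0.103 and 0.121), and for Idi1 in heart minus brain (-0.038 to 0.030 on leaving out a time). Without the 6, 12 and 24 hour liver arrays, Sqle turned to -0.514 in liver minus brain, and later minus first days, then 1 hour alone against 3 arrays, became 0.612 for Hmgcs1, 0.0821 for Idi1, 0.955 for Fdps, 0.299 for Sqle, 0.823 for Lss and 0.529 for Cyp51. The cause was not tested. Alternatives that left out several arrays were chosen after seeing the data. Of the other single-gene values, 23 lost and 23 gained a call with the same direction.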
